A study of Mus musculus with 12 samples.

Results

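Oxidative phosphorylation (OXPHOS) genes were examined in RNA-seq of GM-CSF bone marrow-derived dendritic cells (BMDCs) with and without CTCF. They were chosen by symbol, as the structural subunits of complexes I to V (symbols starting with Ndufa, Ndufb, Ndufc, Ndufs, Ndufv, Sdha to Sdhd, Uqcr, Cox4i, Cox5 to Cox8, Atp5 and the mitochondrial mt-Nd, mt-Co, mt-Cyt and mt-Atp, without the Ndufaf assembly factors and 9 symbols marked -ps). This gave 103 of the 55335 quantified genes, of which 90 are nuclear and 13 are encoded by mitochondrial DNA. By complex, nuclear and mitochondrial genes numbered 39 and 7 for complex I, 4 and 0 for complex II, 8 and 1 for complex III, 21 and 3 for complex IV, and 18 and 2 for complex V, with Ndufa4 and Ndufa4l2 counted under complex IV. GENCODE lists 4 of the 90 nuclear genes as processed pseudogenes (Ndufb4c, Cox6c2, Ndufa11b and Ndufs6b), of which Ndufb4c alone passed the filter on low counts below.

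Bone marrow cells of adult C57BL/6 mice were grown with GM-CSF for 6 days, and the CD11c+ cells were selected with beads. All mice carried CreER, a tamoxifen-inducible Cre expressed from the Rosa26 locus and so not limited to dendritic cells. WT cultures (CreER) and KO cultures (CreER;CTCF fl/fl) were left unstimulated, and WTL and KOL were the same genotypes given LPS at 100 ng/ml for 3 h, with 3 libraries in each of the 4 groups. 4-OH tamoxifen was given at the start of culture to delete Ctcf in the KO and not in the WT cells. Neither the labels nor the methods say plainly whether WT cultures also received it. If they did not, its effect cannot be told apart from the loss of CTCF. The libraries of a group are numbered replicates that no label ties to separate mice, so p-values measure the spread between these samples. In bulk RNA, fewer cells of a type and less RNA per cell cannot be told apart.

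OXPHOS couples the oxidation of NADH and succinate to ATP synthesis in the inner mitochondrial membrane. Complex I takes electrons from NADH and complex II, which is also the succinate dehydrogenase of the citric acid cycle, takes them from succinate. Complex III passes them to cytochrome c and complex IV to oxygen, and complex V makes ATP from the proton gradient. Every complex except II mixes nuclear subunits with subunits that the mitochondrial genome encodes and mitochondrial ribosomes translate. Dendritic cells stimulated through TLR4, the LPS receptor, are known to turn towards glycolysis.

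Libraries held 12769773 to 16586334 expected counts, the read counts that RSEM estimates when it divides ambiguous reads among genes. Ctcf had 1051, 987 and 975 normalized counts in WT and 569.7, 562 and 516 in KO (log2 fold change -0.87 ± 0.08 SE, adjusted p = 3.9e-07, edgeR), and 886, 817 and 745 in WTL and 563, 530.0 and 526 in KOL. Normalized counts are counts scaled by TMM to a common library size. WTL replicate 1 and KOL replicate 2 stood apart: WTL replicate 1 was the lowest of its group in 62 of the 80 nuclear genes tested and the highest in 11 of the 13 mitochondrial genes, and KOL replicate 2 the lowest in 60 of 80 and the highest in 8 of 13. Their mean fragment lengths, 240.9 and 237.9 bases from the deposited effective lengths, were among the 3 longest of the 12 libraries, and the part of fragment length was not tested. WTL replicate 2 differed in another way: 4.65% of its counts were nuclear ribosomal RNA, against 0.134% to 0.636% in the other 11 libraries. The chi-square per degree of freedom of its counts was 86 and 80.3 against the other WTL libraries, which gave 31.1 between themselves. Pairs of libraries gave 3.33 to 4.75 in WT and 1.7 to 1.92 in KO. In KOL, replicate 2 gave 29.8 and 31.4 against the others, which gave 8.78 between themselves. The spread thus differed widely between groups that share one fit. Without WTL replicate 2, the nuclear OXPHOS genes called higher and lower, as counted below, were 28 and 1 in WTL against WT, 21 and 5 in KOL against WTL and 2 and 5 for the interaction. Here and below, fits without 1 library come with no share of all genes called. A shift in OXPHOS calls in them cannot be told from one over all genes. All 9 dendritic cell markers were detected, with summed normalized counts of 163312 to 172149 in WT, 199626 to 259255 in WTL, 134031 to 135948 in KO and 211441 to 268130 in KOL. All 7 macrophage and monocyte markers were detected as well, at 16539 to 18002 in WT, 9627 to 11921 in WTL, 26528 to 27422 in KO and 9470 to 12648 in KOL, and the 8 neutrophil markers summed to 1164 to 1283, 1724 to 2056, 585 to 668 and 1194 to 1407. Their part in the results was not tested. Markers of T, B and NK cells summed to at most 49.6, and those of mast cells, basophils and eosinophils to at most 188.

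The mitochondrial genes come first, since where their reads were counted decides their values. A stretch of mouse chromosome 1 (chr1:24611535-24616197, minus strand, mm10) holds copies of 7 of the 13 genes that GENCODE annotates as genes of their own. The copies of mt-Co2, mt-Atp6, mt-Co3 and mt-Nd4l (Gm28661, Gm10925, Gm28437 and Gm10222) were identical to the mitochondrial gene over 681, 678, 783 and 294 aligned bases. Gm28438 matched mt-Nd3 at 344 of 345 bases, with the substitution T3C counted from the first base of mt-Nd3, and Gm29216 matched the last 492 bases of mt-Co1 at 486. Gm28439 was identical to the first 876 bases of mt-Nd4. The first 60 bases of a pair with no difference and of the pair with 1 difference, which is in capitals, show why most reads cannot be assigned:
mt-Co2 (chrM:7013-7072, plus strand): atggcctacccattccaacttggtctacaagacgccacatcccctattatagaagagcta
Gm28661 (chr1:24615506-24615565, minus strand): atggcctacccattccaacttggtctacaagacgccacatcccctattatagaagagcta
mt-Nd3 (chrM:9459-9518, plus strand): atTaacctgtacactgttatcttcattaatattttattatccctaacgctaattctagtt
Gm28438 (chr1:24613060-24613119, minus strand): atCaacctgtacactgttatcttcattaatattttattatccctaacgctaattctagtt

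In the deposited counts, the copy held 98.7% to 100% of the summed counts of mt-Co2 and its copy over the 12 libraries. For mt-Co3 the copy held 96.5% to 100%, for mt-Atp6 91.9% to 97.9%, for mt-Nd3 90.5% to 97.8%, for mt-Nd4l 72.9% to 88.9%, and for mt-Co1 3.73% to 11.1%. mt-Co2 alone therefore had 469, 616 and 0.00 normalized counts in the WT libraries, against 87195, 82421 and 93162 when the copy was added. For mt-Nd4 the copy held at most 0.0158%. Values of the other 6 genes are given below mainly as summed with the copy, and counts of called genes both as deposited and summed. mt-Atp8, mt-Atp6 and mt-Co3 overlap one another, as do mt-Nd4l and mt-Nd4, and mt-Nd6 lies opposite mt-Nd5, so reads of neighbours could also be split.

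Mitochondrial mRNA and its copies took 4.42% ± 0.30 of all counts in WT (SD, n = 3), 3.75% ± 0.77 in WTL, 5.20% ± 0.05 in KO and 4.84% ± 0.61 in KOL. The libraries of WT (4.10% to 4.69%) lay below those of KO (5.15% to 5.25%), whereas WTL (3.17% to 4.62%) and KOL (4.32% to 5.51%) overlapped. The highest of WTL was replicate 1 and the highest of KOL was replicate 2. Nuclear OXPHOS genes took 0.949% ± 0.019, 0.800% ± 0.068, 1.07% ± 0.02 and 0.947% ± 0.092 of the counts in WT, WTL, KO and KOL. These shares are of counts, so that longer genes weigh more.

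Of the 90 nuclear genes, 80 passed the filter on low counts, as did all 13 mitochondrial genes. The 10 that did not were Cox4i2, Cox6a2, Cox6c2, Cox7b2, Cox8b, Cox8c, Ndufa4l2, Ndufa11b, Ndufs6b and a second Atp5o identifier, none with more than 7.13 counts in any library. Several of these are known isoforms of other tissues: Cox6a2 and Cox8b of heart and skeletal muscle, Cox4i2 of lung, and Cox7b2 and Cox8c of testis. Of the tissue isoforms that passed, Cox7a1 of heart and muscle had 19.5 ± 8.76 normalized counts in WT (SD, n = 3) and Cox6b2 of testis 66.1, 52.8 and 57.9, whereas Cox6b1, the general form, had 2989.9, 3324 and 3317.

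Levels per transcript length spread widely within each complex. By mean TPM in WT, complex I ran from 30.2 (Ndufb4) to 535 (Ndufa1), complex II from 75.3 (Sdhc) to 226 (Sdhd), complex III from 91.9 (Uqcrfs1) to 1047 (Uqcrh), complex IV from 10.8 (Cox7a1) to 1369 (Cox6b1) and complex V from 163 (Atp5d) to 980.0 (Atp5e). The median nuclear gene of complex I had a TPM of 131 in WT, 106 in WTL, 128 in KO and 110.0 in KOL. The corresponding medians were 117, 75.9, 152 and 85.8 for complex II, 275, 248, 286 and 323 for complex III, 356, 297, 431 and 336 for complex IV, and 395, 317, 460 and 328 for complex V. Ndufb4 shares sequence with Ndufb4c, so its low level is uncertain.

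Loss of CTCF without stimulation (KO against WT) moved more OXPHOS genes up than down. Among the 80 nuclear genes, 30 were higher and 6 lower (edgeR quasi-likelihood test, Benjamini-Hochberg adjusted p under 0.05), where 22.2% of the 14008 genes tested were called higher and 22.4% lower. Their median log2 fold change was 0.15, against -0.01 for all genes. The 13 mitochondrial genes had 6 higher and 1 lower in the deposited counts (median 0.55), and 8 higher and 1 lower when summed with the copies (median 0.45), a fit in which 22.2% and 22.4% of all genes were called. On TPM, where the median of all genes shifted to -0.10, the nuclear genes had 20 higher and 10 lower with a median of 0.04, against 13.4% and 23.5% of all genes, and centring TPM on the median of all genes gave 30 higher and 5 lower, against 20.2% and 15.3%. Past the study's fold cutoff of 1.3, 19 were higher and 2 lower, where 17.3% and 17.2% of all genes were. Leaving out any 1 WT or KO library brought the number higher down from 30 to between 20 and 25. The number lower was 3 without any 1 of the KO libraries, 8 without WT replicate 1, 4 without WT replicate 2 or 3, and 12 in a fit of the WT and KO libraries alone. Lack of overlap was common: of the 14008 genes tested, 4467 had every KO library above every WT library and 4530 below. Of the 80 nuclear genes these were 44 and 11, and of the 13 mitochondrial genes as deposited 10 and 1. Over all genes, the counts above and below were 3070 and 3420 in KOL against WTL and 4894 and 5078 in KOL against KO.

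**Figure D1:**
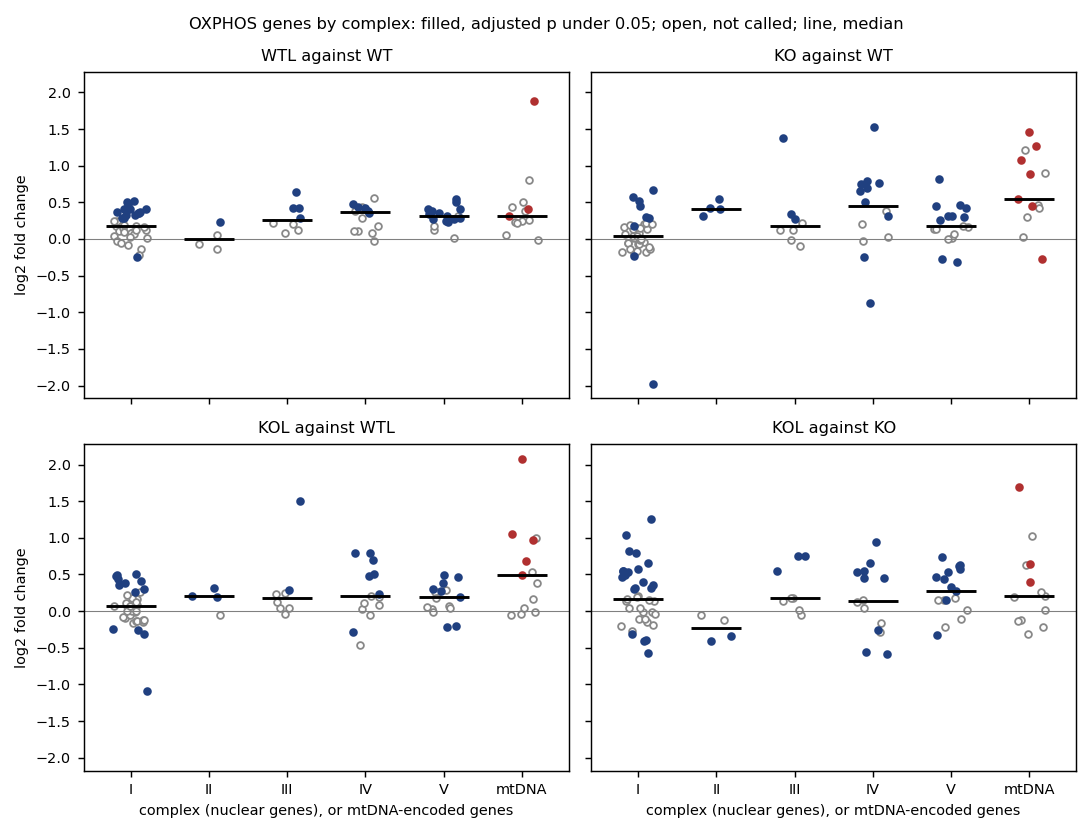
Log2 fold change (y axis) of each tested OXPHOS gene, by complex for nuclear genes and in 1 column for mitochondrial genes as deposited, in the 4 comparisons; filled points passed an adjusted p of 0.05, open points did not, and lines are medians. In KO against WT all 4 complex II genes were called higher, while complex I was centred on 0.04; the 2 LPS comparisons turn to negative medians when TPM sets the scale.

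All 4 subunits of complex II rose in KO. Sdha, the flavoprotein that oxidizes succinate, had 2491, 2653 and 2549.6 normalized counts in WT and 3824, 3609 and 3828 in KO (0.55 ± 0.06 SE, adjusted p = 5.3e-06). Every KO library exceeded every WT library. The iron-sulfur subunit Sdhb changed by 0.41 ± 0.07 SE, adjusted p = 0.000156. The membrane anchors Sdhc and Sdhd changed by 0.31 and 0.42. The summed normalized counts of the complex were 7436 to 7575 in WT and 9928 to 10405 in KO.

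Complex III had 3 of 8 genes higher and a median of 0.17. Uqcrfs1, the Rieske iron-sulfur protein, stood out with 1107, 1099 and 1061 normalized counts in WT and 2821, 2857 and 2851 in KO (1.38 ± 0.10 SE, adjusted p = 5.4e-08), a 2.61-fold difference of means. The groups were far apart and the KO libraries almost equal. Uqcr10 and Uqcrq, small subunits, rose by 0.33 and 0.28. Uqcrc1, a core subunit, had 1451, 1574 and 1462 in WT and 1761, 1724 and 1754 in KO and was not called (0.22 ± 0.10 SE, adjusted p = 0.0957).

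Complex IV had 8 of 14 nuclear genes higher and 2 lower and a median of 0.45, or 0.38 without Ndufa4. Cox8a, a small membrane subunit, had 1376, 1713 and 1132 normalized counts in WT and 4357, 3753 and 4094 in KO (1.53 ± 0.22 SE, adjusted p = 5.7e-05). The groups were far apart, with a 2.89-fold difference of means. Cox4i1, a subunit that binds ATP and regulates the complex, had 3617, 4030.4 and 3949.8 and 6352, 6060.2 and 6345 (0.69 ± 0.12 SE, adjusted p = 0.000243), again without overlap. It shares positions with Emc8 on the other strand and Gm20388 on its own, whose means in WT and KO were 404 and 637, and 317 and 246.

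Cox5b, the zinc-binding subunit, had 1461, 1499 and 1240.2 in WT and 2415, 2357 and 2364 in KO (0.76 ± 0.12 SE, adjusted p = 9e-05). Ndufa4, long assigned to complex I, had 927, 929 and 942 and 1567, 1544 and 1599 (0.75 ± 0.08 SE, adjusted p = 5.5e-06). Both were higher in each KO library than in any WT library. Cox5a, Cox6a1, Cox6b1 and Cox7b were the other 4 called higher. Of those called lower, Cox6b2 went from 66.1, 52.8 and 57.9 counts to 33.2, 31.7 and 31.5 (-0.87). Cox7a2l changed by -0.25 ± 0.09 SE, adjusted p = 0.0331, and its call was lost (-0.13) when it was summed with Gm6969, a gene of shared sequence that went from 19.3, 15.1 and 21.6 in WT to 291, 308 and 253 in KO.

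**Figure D2:**
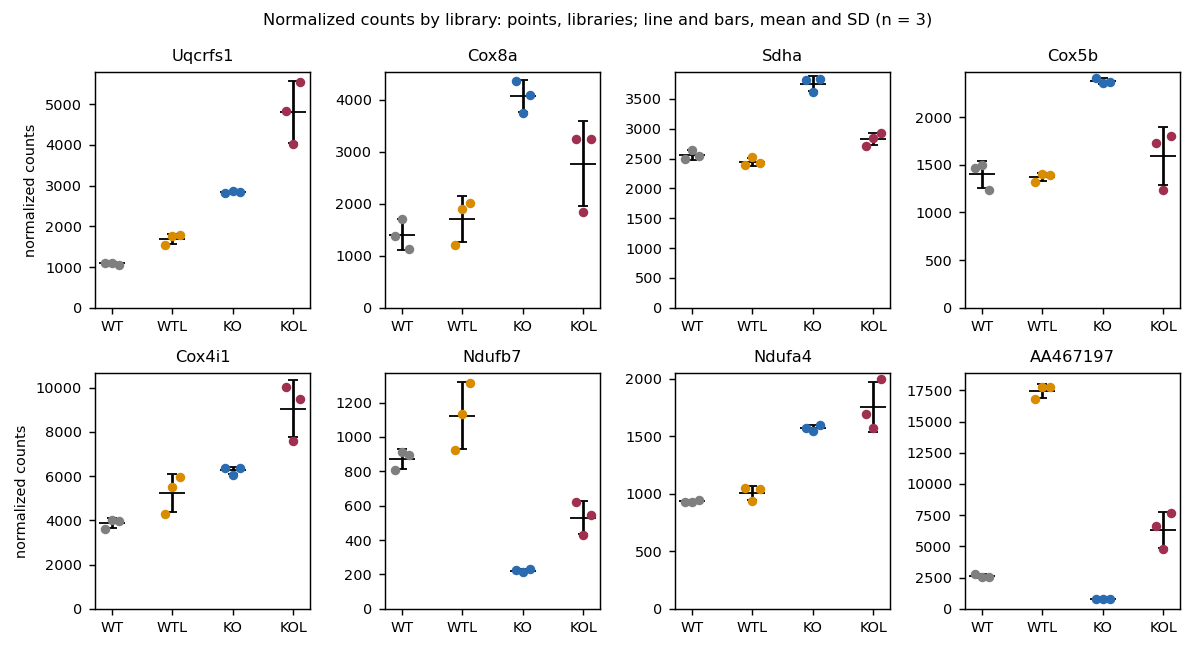
Normalized counts (y axis, from 0) of 8 genes in each library of WT, WTL, KO and KOL; points are libraries, the line and bars the mean and SD (n = 3). Uqcrfs1, Cox8a, Sdha, Cox5b, Cox4i1 and Ndufa4 had every KO library above every WT library and Ndufb7 and AA467197 every KO library below. Of all 14008 genes tested, 4467 had every KO library above every WT library and 4530 below. KOL replicate 2 was the lowest KOL library in 7 of the 8 panels.

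Complex V had 8 of 17 genes higher and 2 lower. Atp5d, the delta subunit of the central stalk, had 1083, 1320.0 and 1176 in WT and 2229.6, 2006 and 2106 in KO (0.82 ± 0.16 SE, adjusted p = 0.00087), with no overlap. The catalytic core subunits alpha and beta, Atp5a1 and Atp5b, rose by 0.32 and 0.42. The genes for the c subunit of the rotor differed among themselves: Atp5g3 changed by 0.45 and was called higher, Atp5g2 by -0.31 ± 0.08 SE, adjusted p = 0.00438 and was called lower, and Atp5g1, with 0.01, was not called. Atp5g2 shares sequence with Gm10175, and its value summed with it was -0.33.

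Complex I, the largest, was the least moved as a group, with 7 of 37 nuclear genes higher and 2 lower (all genes, 22.2% and 22.4%) and a median of 0.04. Its 7 nuclear core subunits, which carry the flavin and iron-sulfur clusters, had 3 called, all higher. These were Ndufs3 (0.45), Ndufv1, which binds NADH (0.29), and Ndufs1 (0.18). Among accessory subunits, Ndufc2 rose the most, from 639, 628 and 642 to 1034, 984 and 1030.1 (0.67 ± 0.07 SE, adjusted p = 4.1e-06). Ndufa10 and Ndufb2 rose by 0.57 and 0.52.

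Ndufb7, an accessory subunit on the intermembrane-space side of complex I, fell the most of all OXPHOS genes. It had 807, 912 and 897 normalized counts in WT and 224, 212 and 229.7 in KO (-1.97 ± 0.14 SE, adjusted p = 4.5e-08). No KO library came near a WT library, and the mean in KO was 0.255 times that in WT. Ndufv3, the other complex I gene called lower, changed by -0.24.

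The mitochondrial genes did not move as a block in KO. mt-Nd1 had 29032, 25716 and 29903 normalized counts in WT and 60599, 59719 and 59122 in KO (1.08 ± 0.13 SE, adjusted p = 6.7e-06). mt-Nd2, its neighbour, had 13476, 12336 and 15136 and 33299.7, 32024 and 33011 (1.26 ± 0.21 SE, adjusted p = 0.000176). Neither is among the 7 with a copy, and the groups of both were without overlap. mt-Co1, which follows them on the same strand and is cut from the same long precursor, had 195504, 179513 and 205624 with its copy in WT and 195433, 193782 and 192615 in KO (0.00 ± 0.13 SE, adjusted p = 0.988). Its groups overlapped.

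Summed with their copies, mt-Nd3 and mt-Nd4l rose by 1.02 and 1.05, mt-Nd4 by 0.55, mt-Cytb, the mitochondrial subunit of complex III, by 0.45, mt-Co3 by 0.37 and mt-Co2 by 0.32. mt-Atp6 and mt-Atp8 of complex V gave 0.16 and 0.46 and were not called, nor was mt-Nd5 (0.30). mt-Atp6 alone, as deposited, gave 1.46 and was called, but its WT libraries held 810.2, 959 and 1050.1 normalized counts without the copy and 37790.1, 33641 and 37908 with it. mt-Nd6, the single mRNA of the opposite strand, went from 4808, 3905 and 4279.9 in WT to 3564, 3767 and 3395 in KO (-0.28 ± 0.10 SE, adjusted p = 0.0398) and was the 1 gene called lower, a call that was lost on centred TPM (-0.23) and when any library but WT replicate 2 was left out. By complex, the mitochondrial genes called higher after summing were 5 of 7 of complex I, the 1 of complex III, 2 of 3 of complex IV and 0 of 2 of complex V.

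**Figure D3:**
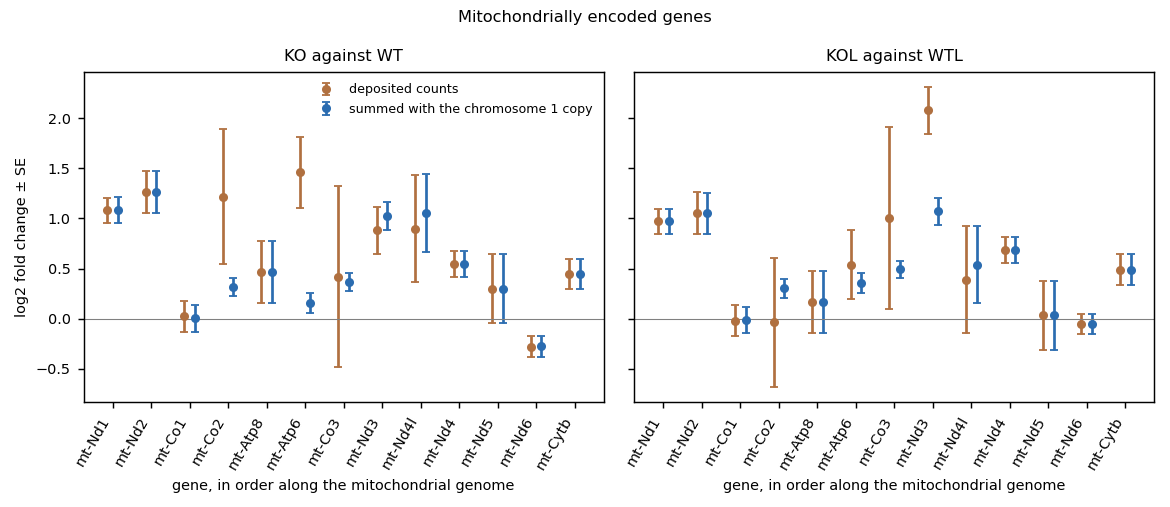
Log2 fold change ± SE (y axis) of the 13 mitochondrial genes in their order along the mitochondrial genome, in KO against WT and KOL against WTL, from deposited counts and after summing with the chromosome 1 copy. mt-Nd1 and mt-Nd2 were near 1 in both comparisons and mt-Co1 near 0; the SE of mt-Co2, mt-Co3 and mt-Nd3 shrank on summing.

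The mitochondrial ribosomal RNAs, which share the promoter region of that strand, differed from each other: mt-Rnr2 went from 19092, 16572 and 20210.4 in WT to 44057, 45968 and 44421 in KO (1.27 ± 0.21 SE, adjusted p = 0.000161) and mt-Rnr1 from 10776, 9283 and 10759.5 to 8539.6, 8997 and 8488 (-0.24 ± 0.19 SE, adjusted p = 0.331). The first rose without overlap and the second was not called. Depletion of ribosomal RNA is named in the labels and poly(A) selection in the methods, either of which would remove most of these transcripts.

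Under LPS, the same genotypes were compared as KOL against WTL. Among nuclear genes 26 were higher and 7 lower, where 21.4% of all genes were called higher and 23.3% lower, and the median was 0.12 against -0.03 for all genes. By complex, higher and lower calls were 9 and 4 for complex I, 6 and 1 for IV and 6 and 2 for V, while 3 of the complex II and 2 of the complex III genes were called, all higher. Past a fold of 1.5, 4 nuclear genes were higher and 1 lower, where 12.5% and 12.5% of all genes were. On TPM the nuclear counts were 19 and 6, against 15.2% and 19.5% of all genes, and on centred TPM 26 and 3, against 19% and 16.2%. Without WTL replicate 1 the nuclear counts were 16 and 7, without KOL replicate 3 the number higher was 15, and without WTL replicate 3 the number lower was 3.

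Among nuclear genes Uqcrfs1 had the largest rise, from 1542, 1759 and 1776 in WTL to 4838, 4031 and 5550.3 in KOL (1.51 ± 0.10 SE, adjusted p = 2.6e-08), and Ndufb7 the largest fall, from 924, 1134 and 1312 to 619, 428 and 543 (-1.08 ± 0.13 SE, adjusted p = 1.2e-05). Both were without overlap. Cox4i1 went from 4271, 5485 and 5948 to 10041, 7582 and 9489 (0.79 ± 0.12 SE, adjusted p = 8.2e-05) and Ndufa4 from 1045, 936 and 1039 to 1691, 1569 and 1996 (0.80 ± 0.09 SE, adjusted p = 3.4e-06). Cox8a had 1209.7, 1904 and 2016 in WTL and 3236, 1833 and 3247 in KOL (0.70 ± 0.22 SE, adjusted p = 0.0183), and here the lowest KOL library lay within WTL. Sdha and Sdhb were higher by 0.21 and 0.20, Sdhd by 0.31, and Sdhc, at -0.05, was not called. In complex V, Atp5e, the epsilon subunit, rose the most (0.49) and Atp5g2 and Atp5c1, the gamma subunit, fell (-0.21 and -0.21). In complex I, Ndufa2 rose the most, from 890.1, 1218 and 1212 to 1669, 1245 and 1803 (0.51 ± 0.14 SE, adjusted p = 0.00784). Cox7a2l was called lower (-0.29), and not when summed with Gm6969 (-0.17).

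Of the mitochondrial genes, 5 were higher in KOL as deposited, and 8 when summed with the copies, where 21.3% of all genes in that fit were called higher and 23.3% lower. mt-Nd1 had 43873, 30356 and 30579 in WTL and 61926, 75039 and 68872 in KOL (0.97 ± 0.12 SE, adjusted p = 2e-05), and mt-Nd2 changed by 1.05. mt-Nd3 summed with its copy had 14683, 9713 and 10044 and 21259, 25077 and 26075 (1.07 ± 0.14 SE, adjusted p = 1.6e-05). These 3 complex I genes were higher in every KOL library. mt-Nd4, mt-Cytb, mt-Co3, mt-Atp6 and mt-Co2 were the other 5 called, at 0.69, 0.49, 0.49, 0.36 and 0.30, and mt-Co1 (-0.01), mt-Nd6 (-0.05) and mt-Nd5 (0.04) were not.

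The response of WT cells to LPS (WTL against WT) depended on the scaling. After TMM, 37 nuclear genes were higher and 1 lower (median 0.25), where 30.1% of all genes were called higher and 30.2% lower, whereas on log2(TPM + 1) with limma 0 were higher, also at an unadjusted p under 0.05, and 45 lower (median -0.26), where 12.7% of all genes were called higher and 56.2% lower. TPM moved the median of all genes to -0.44, so that relative to all genes the nuclear OXPHOS genes stood 0.26 higher after TMM and 0.18 higher on TPM. Of the 37 genes called higher after TMM, 3 had a positive value on TPM, and all 37 on TPM centred on the median of all genes, where 32 kept the call and 34 nuclear genes were higher and 2 lower, against 29.1% and 21.7% of all genes. Past a fold of 2, edgeR called 0 of the 80 in either direction, where 12.6% of all genes were higher and 9.99% lower. Without WT replicate 1 the number higher after TMM was 16, and without WT replicate 3 it was 23.

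**Figure D4:**
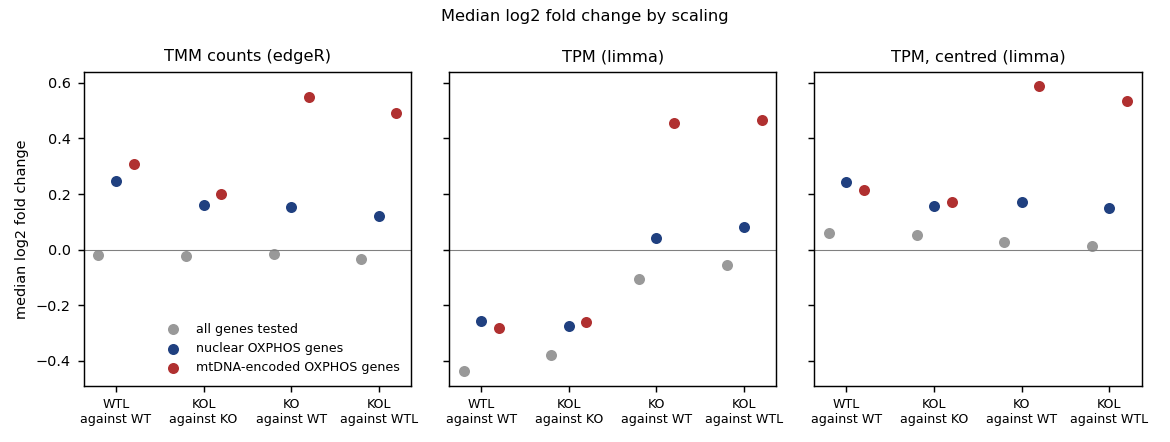
Median log2 fold change (y axis) of all genes tested, nuclear OXPHOS genes and mitochondrial OXPHOS genes as deposited, in 4 comparisons (x axis), with TMM counts (edgeR), TPM (limma) and TPM centred on the median of all genes (limma). In both LPS comparisons the OXPHOS medians were above 0 with TMM or centring and below 0 on TPM, and the nuclear median stayed above that of all genes in every panel.

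Complex V had 13 of 17 genes called higher by LPS after TMM, with Atp5e going from 1856, 2055 and 2227 in WT to 2550.3, 3056 and 3332 in WTL (0.54 ± 0.10 SE, adjusted p = 0.000417; 0.03 on TPM). Complex III had 4 of 8, led by Uqcrfs1, with 1542, 1759 and 1776 in WTL (0.64 ± 0.10 SE, adjusted p = 7.1e-05; 0.11 on TPM). Complex IV had 5 of 14, led by Cox7c (0.48; -0.12 on TPM), and Cox4i1 was another (0.44; -0.10 on TPM). Complex I had 14 of 37 higher, led by Ndufb4 (0.51, and -0.05 on TPM). All 14 were accessory subunits, as most of the 37 are. Over all genes 30.1% were called higher, near the shares of complexes I and IV. Of the 7 nuclear core subunits 1 was called, Ndufs1, which fell from 1013, 989.6 and 988 to 867, 839.6 and 821 (-0.24 ± 0.07 SE, adjusted p = 0.00577; -0.74 on TPM). Ndufs1 overlaps Eef1b2 on the other strand, whose mean was 5358 in WT and 6964 in WTL. In complex II, Sdhc was called higher after TMM (0.23; -0.26 on TPM), and the other three had values of -0.13 to 0.06.

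Of the mitochondrial genes, 3 were called higher by LPS in WT as deposited, 6 when summed with the copies, a fit in which 30.1% of all genes were called higher and 30.1% lower, and 0 on TPM. The 6 were mt-Nd1, mt-Co2, mt-Atp6, mt-Co3, mt-Nd3 and mt-Nd6, at 0.31, 0.31, 0.33, 0.37, 0.34 and 0.42. WTL replicate 1 set much of this: mt-Nd1 had 43873, 30356 and 30579 in WTL. The median as deposited was 0.31 with that library and 0.04 without it.

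In CTCF-deficient cells the LPS response (KOL against KO) had 35 nuclear genes higher and 10 lower after TMM (median 0.16), where 33.6% of all genes were called higher and 33.9% lower, and 10 higher and 39 lower on TPM (median -0.28, all genes -0.38), where 16.7% and 51.6% of all genes were called. Centred TPM gave 37 and 8, against 32.8% and 26.7%, and past a fold of 2 edgeR called 2 higher, where 15.1% of all genes were higher and 13% lower. Uqcrfs1 went from 2821, 2857 and 2851 in KO to 4838, 4031 and 5550.3 in KOL (0.76 ± 0.10 SE, adjusted p = 8.7e-06; 0.29 on TPM). Ndufb7 rose from 224, 212 and 229.7 to 619, 428 and 543 (1.26 ± 0.14 SE, adjusted p = 2.4e-06; 0.83 on TPM), which left it below every WTL library. Both were without overlap. Atp5e and Cox7c rose by 0.74 and 0.65 (0.29 and 0.07 on TPM).

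Complex II moved the other way, with 2 of 4 genes lower (all genes, 33.9%) and a median of -0.23. Sdha went from 3824, 3609 and 3828 in KO to 2719.5, 2839.6 and 2931 in KOL (-0.41 ± 0.06 SE, adjusted p = 4.4e-05; -0.82 on TPM) and Sdhb from 1695, 1586 and 1643 to 1211, 1338 and 1332 (-0.34; -0.81 on TPM). The core subunits Ndufs1 and Ndufv1 also fell, by -0.57 and -0.31. Cox5b and Cox8a, both raised by the loss of CTCF, fell to 1728, 1240.2 and 1805 and 3236, 1833 and 3247 (-0.58 and -0.55), and Atp5c1 fell by -0.33. All of these were negative on TPM as well, but that scale lowered the median of all genes to -0.38 and so could hardly turn them. On centred TPM all 10 nuclear genes called lower kept their sign and 7 kept their call. The mitochondrial genes had 3 called higher as deposited, 6 when summed with the copies (mt-Co2, mt-Atp6, mt-Co3, mt-Nd3, mt-Nd4 and mt-Nd6), where 33.6% of all genes were called higher and 34% lower, and 1 on TPM. Outside KO against WT, no mitochondrial gene was called lower in these comparisons by edgeR on either count after the filter, by DESeq2 or by limma with all 12 libraries (without KOL replicate 2, edgeR called 2 lower in KOL against KO), and at an unadjusted p under 0.05 the sole one was 1 in KOL against KO with limma on TPM.

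Whether the LPS response itself differed with CTCF was tested by the interaction, the response in KO minus that in WT. It was called for 10 nuclear genes, 3 with a higher and 7 with a lower response in KO, where 8.68% of all genes were called higher and 8.75% lower, and for mt-Nd3 alone among mitochondrial genes as deposited. OXPHOS genes were thus not called more often than all genes. Without KOL replicate 2 the nuclear counts were 7 and 8, without WTL replicate 1 they were 2 and 12, leaving out a KO library left 1 higher, and leaving out a WT library left 1 or 2 lower. On TPM, where 7.06% and 4.49% of all genes were called, all 10 had the same sign, and 3 of the 3 higher and 1 of the 7 lower kept their call. On centred TPM, where 6.2% and 6.83% were, 3 and 2 kept it.

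Those with a lower response in KO were the 2 complex II genes Sdha and Sdhc, Atp5b and Atp5c1 of complex V, Ndufs1 and Ndufa10 of complex I, and Cox5b of complex IV. Sdha differed by -0.34 ± 0.09 SE, adjusted p = 0.0157: its WT and WTL libraries held 2399 to 2653 counts, while KO held 3609 to 3828 and KOL 2720 to 2931. Ndufa10 had 790.0, 838 and 723 in WT, 782, 861 and 784 in WTL, 1153, 1137 and 1198 in KO and 891, 886 and 873 in KOL (-0.44 ± 0.10 SE, adjusted p = 0.0082). In all 7, the KO mean was the highest of the 4 groups. Atp5b differed by -0.39 ± 0.08 SE, adjusted p = 0.0051 and after TMM rose with LPS in WT (0.29) but not in KO (-0.10, not called). On TPM its LPS values were -0.19 in WT and -0.53 in KO.

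Those with a higher response in KO were Ndufb7 (0.89 ± 0.19 SE, adjusted p = 0.00544), Ndufa3 and Cox6b2. Ndufa3 had 798, 951 and 972 in WT, 878, 1096 and 1249 in WTL, 818, 817 and 838 in KO and 1488, 1346 and 1544 in KOL (0.58 ± 0.16 SE, adjusted p = 0.023). It overlaps Tfpt on the other strand, whose means in the 4 groups were 224, 193, 367 and 595. Cox6b2 differed by 0.82 ± 0.24 SE, adjusted p = 0.0323 at 31.5 to 75.5 counts in any library. mt-Nd3 differed by 1.20 ± 0.33 SE, adjusted p = 0.023 as deposited and by 0.05 when summed with its copy, a fit that called 8.69% of all genes higher and 8.81% lower. Its call as deposited was lost without WT replicate 2, WTL replicate 2, KO replicate 3, KOL replicate 1 or KOL replicate 3.

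**Figure D5:**
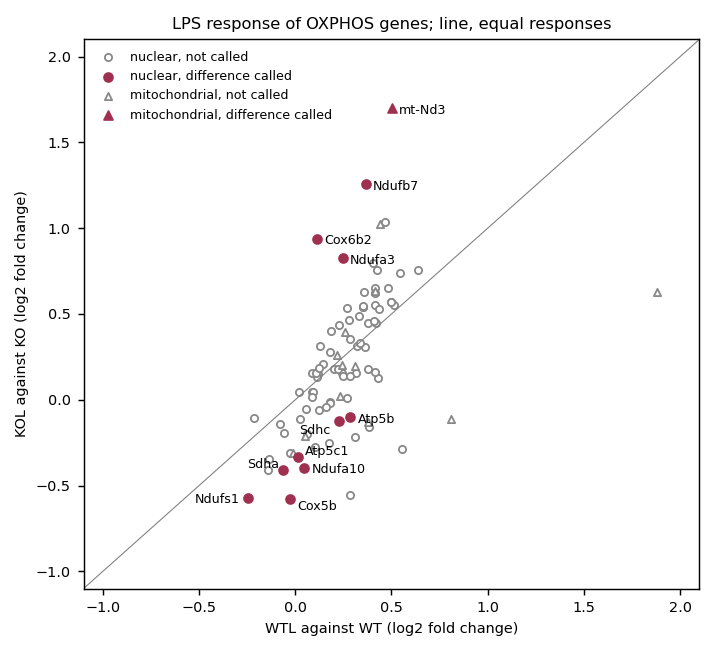
LPS response of each tested OXPHOS gene in WT (x axis, log2 fold change of WTL against WT) and in KO (y axis, KOL against KO), after TMM; both axes shift down on TPM. Circles are nuclear and triangles mitochondrial genes as deposited, and filled symbols are the 11 genes whose difference of responses was called; the line marks equal responses.

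Ndufa4 and its paralogue AA467197 (Nmes1), whose product can take the place of that of Ndufa4 in complex IV, moved in opposite directions with the loss of CTCF. AA467197 had 2812, 2525 and 2568 normalized counts in WT and 16836, 17803 and 17801 in WTL (2.73 ± 0.13 SE, adjusted p = 2.6e-10; 2.21 on TPM). In KO it had 801, 742 and 804 (-1.75 ± 0.13 SE, adjusted p = 7.3e-08) and in KOL 6611, 4781 and 7639 (-1.46 ± 0.13 SE, adjusted p = 3.6e-07). Each CTCF-deficient group was thus below the WT group of the same stimulation, whereas Ndufa4 was above it in both. Its LPS response in KO (3.02) did not differ from that in WT past the threshold (0.29 ± 0.18 SE, adjusted p = 0.296). Ndufa4 had 1045, 936 and 1039 in WTL, and its LPS values of 0.11 in WT and 0.16 in KO, not called after TMM, were -0.41 and -0.38 on TPM. Ndufa4l2, the third of the family, had at most 2 counts.

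Genes that build or serve the complexes were counted in the same way, to be read against the shares of all genes called: 22.2% higher and 22.4% lower in KO against WT, 21.4% and 23.3% in KOL against WTL, 30.1% and 30.2% for LPS in WT and 33.6% and 33.9% for LPS in KO. On TPM the LPS shares were 12.7% and 56.2% in WT and 16.7% and 51.6% in KO. Of 48 assembly factors tested, 7 were higher and 12 lower in KO than WT (median -0.02). Ndufaf3, an assembly factor of complex I, went from 145, 189.5 and 188 in WT to 38.6, 49.9 and 42.6 in KO (-2.00 ± 0.15 SE, adjusted p = 1.2e-07), and Coa7, of complex IV, rose by 0.85. The first had no overlap between groups and was also lower in KOL than WTL (-1.53). In KOL against WTL 7 assembly factors were higher and 10 lower, with Cox19, a copper-delivery factor of complex IV, at 1.24. LPS gave 9 higher and 17 lower in WT after TMM, among them Sco1, a copper chaperone (1.40; 0.86 on TPM), and Tmem126b, of complex I (-1.31), and 16 higher and 19 lower in KO, with Cox17, another copper chaperone, at 1.55 (1.20 on TPM). On TPM these counts were 3 and 32 in WT and 4 and 24 in KO.

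Of the 78 mitochondrial ribosomal proteins, 8 were higher and 6 lower in KO after TMM (median 0.01) and 3 and 13 on TPM, in each case smaller shares than those of all genes. Mrps2, a protein of the small subunit, went from 355, 320.4 and 302 in WT to 30.5, 25.0 and 30.6 in KO (-3.50 ± 0.12 SE, adjusted p = 4.4e-11), and had 347, 324 and 349.8 in WTL and 49.5, 38.6 and 50.2 in KOL (-2.87). Mrpl23, of the large subunit, changed by -3.06 (-2.99 on TPM, where Mrps2 gave -2.87) and was named after its values were seen. Mrps28 rose by 0.68. In KOL against WTL 14 were higher and 7 lower, with Mrpl16 at 0.95. LPS gave 16 higher and 10 lower in WT and 30 and 13 in KO after TMM, with Mrpl39 at 1.02 in WT (-0.01 on TPM), Mrpl41 at -0.63, and Mrpl13 and Mrpl2 at 0.95 and -0.98 in KO (0.43 and -1.19 on TPM). On TPM LPS gave 0 higher and 53 lower in WT (limma; 0 higher also at an unadjusted p under 0.05) and 4 and 32 in KO.

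Electron carriers and coenzyme Q enzymes (15 tested) had 5 higher and 4 lower in KO, with Coq2, the prenyltransferase, at 1.03 and Coq3, a methyltransferase, at -0.54, and 4 and 1 in KOL against WTL. After TMM LPS gave 5 and 6 in WT, with Pdss1, which makes the side chain, at 1.23 (0.63 on TPM) and Coq10a at -1.30, and 4 and 4 in KO, with Cycs, cytochrome c, at 0.63 (0.20 on TPM). On TPM these were 2 and 9 in WT and 1 and 8 in KO. Cyc1, the cytochrome subunit of complex III, stood in this list since the choice by symbol did not take it.

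The 15 factors that replicate and express mitochondrial DNA had 4 higher and 2 lower in KO. Lrpprc, which stabilizes mitochondrial mRNAs, had 466, 426 and 455 in WT and 668, 632 and 635 in KO (0.52 ± 0.07 SE, adjusted p = 3.5e-05) and was among the 4. Its partner Slirp was not called (-0.10), nor was Tfam, the packaging and transcription factor (-0.17). Polg, the DNA polymerase, fell by -0.52. In KOL against WTL 2 were higher and 2 lower, Mterf4, a ribosome assembly factor, at 0.51 and Polg at -0.21 among them. After TMM LPS gave 4 higher and 8 lower in WT and 5 and 7 in KO, with Slirp at 0.83 and 1.04 (0.35 and 0.79 on TPM) and the helicase Twnk at -1.47 and -1.84. The TPM counts were 1 and 10 in WT and 1 and 9 in KO.

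Of 10 transcriptional regulators of these genes, 9 passed the filter and Ppargc1a did not. In KO, Ppargc1b, a coactivator of mitochondrial genes, went from 86.3, 80.5 and 89.0 to 151, 175 and 163 (0.93 ± 0.17 SE, adjusted p = 0.000467), Esrra, the nuclear receptor it works with, changed by 0.24 ± 0.09 SE, adjusted p = 0.0417, and Yy1 fell by -0.22, which made 2 higher and 1 lower. In KOL against WTL 3 were higher and 1 lower, with Gabpa at 0.48 and Esrra at -0.35. Gabpa overlaps Atp5j on the other strand. After TMM LPS gave 5 higher and 4 lower in WT, with Hif1a at 0.77 (0.19 on TPM) and Myc at -1.25, and 4 and 4 in KO, with Gabpa at 0.75 (0.31 on TPM) and Ppargc1b at -1.89. On TPM they were 0 higher (limma, also at an unadjusted p under 0.05) and 4 lower in WT and 1 and 5 in KO.

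Promoter letters were read from RefSeq (GRCm38.p6), which held a window from 250 bases before to 50 bases after the start for 68 of the 89 nuclear symbols. On both strands, GCGCATGCG, a form of the site of NRF1, stood in 8 windows (11.8%), against 1.95% of all 27025 symbols, and AAGATGGCG, a form of the YY1 site, in 7 (10.3%) against 1.64%. CCGGAAGT, a form of the site of GABPA, stood in 5 (7.35%) against 4.31%. CNAGGNGGC, a core of the CTCF motif searched after the values were seen, stood in 6 (8.82%), against 9.57% of all symbols. The NRF1 form is a near-palindrome that often matches on both strands. Among the genes with the largest changes, Uqcrfs1, Ndufb7, Cox5b and Sdha had no match to any of the 4, and Cox8a matched 2. The 100 bases before the start are shown for Cox8a, the most raised complex IV gene, with CNAGGNGGC and the start of a reverse-strand CCGGAAGT in capitals, and for Ndufa11, an accessory complex I subunit that LPS raised after TMM (0.28; -0.25 on TPM), with the NRF1 form on both strands in capitals. These letters are a description and show no binding.
Cox8a (chr19:7217617-7217716, minus strand): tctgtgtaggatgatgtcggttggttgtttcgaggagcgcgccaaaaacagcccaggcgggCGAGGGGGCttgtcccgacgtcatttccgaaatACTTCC
Ndufa11 (chr17:56717662-56717761, plus strand): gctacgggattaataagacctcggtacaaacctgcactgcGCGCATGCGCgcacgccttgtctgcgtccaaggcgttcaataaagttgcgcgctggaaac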

How the data were processed

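RNA-seq libraries of WT, WTL, KO and KOL BMDCs (3 each) were grouped by their labels. The authors used Trim Galore for trimming, STAR (2.5.1 in the submitters' processing notes) for alignment to mm10 and RSEM for quantification. They deposited an expected count per gene and library, an estimate that may be fractional. The authors also deposited TPM, which RSEM scales to one sum per library and which keeps no depth, and an effective length, from which mean fragment length was read. Whether RSEM was told the strand is not given in the sources used here, and the methods name a stranded poly(A) kit where the labels name depletion of ribosomal RNA.

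Expected counts were rounded, normalized with TMM and tested with the quasi-likelihood test of edgeR 4.0.16 in R 4.3.3, in one fit of the 12 libraries after filterByExpr (14008 genes). P-values were adjusted over all genes tested (Benjamini-Hochberg, threshold 0.05, no fold cutoff), and the interaction set the KO response to LPS against that of WT. Depth was 12769773 to 16586334 counts per library, and its precision enters through the count model. Alternatives were DESeq2 1.42.0, its size factors, other filters, the 6 libraries of a comparison alone, library sizes without mitochondrial genes, limma 3.58.1 on TPM with pseudocounts of 1 and 0.1 on the log2 scale (genes reaching a TPM of 1 in 3 libraries), a replicate block, the study's fold cutoffs (1.3, 1.5 and 2), copies summed, and leaving out each library. Centring TPM on the median of all genes, leaving the copies out of library sizes and summing all genes of shared sequence were chosen after seeing the data. On simulated counts with one spread for all genes, 100 genes were changed 1.3-fold and 100 were changed 2-fold in KO against WT. The edgeR test recovered 24 and 100 of these with 5 false calls, and DESeq2 24 and 99 with 11. With limma on log2(TPM + 1), 9 of the 99 tested and 86 of the 100 were recovered, with 25 false calls. In these simulated counts most changes of 1.3-fold were missed. In the data the spread differed between groups and far more genes were called, so recovery there is not known. Tables were handled in Python 3.11.15.

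Copies were found by shared runs of 50 bases in GENCODE M21 transcripts (mm10). Named were Ctcf, the mitochondrial genes, members of fixed roles, tissue isoforms, AA467197 and, per complex, list and comparison, the largest rise and fall among called genes that averaged 100 or more normalized counts; further members were named after their values were seen. The members and lists were chosen with earlier results of these data known.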

Additional observations from a re-analysis of the deposited data

Results flagged for a closer look

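The LPS response differed between KO and WT past the threshold in 11 OXPHOS genes (edgeR interaction, adjusted over all genes). Of the 80 nuclear genes tested, 3 were called higher and 7 lower, and of the 13 mitochondrial genes 1 was called higher. Among all genes tested, 8.68% were called higher and 8.75% lower, so OXPHOS genes were not called more often than genes at large. The response in KO minus that in WT was higher, on the log2 scale, for mt-Nd3 (1.20), Ndufb7 (0.89), Cox6b2 (0.82) and Ndufa3 (0.58). It was lower for Cox5b (-0.55), Ndufa10 (-0.44), Atp5b (-0.39), Sdhc (-0.35), Atp5c1 (-0.34), Sdha (-0.34) and Ndufs1 (-0.33).

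Across 24 alternatives each, the difference of Atp5b and Ndufb7 kept its sign and its call in all 24, that of Ndufa10 in 21, Ndufa3 in 20, Sdhc in 17, Sdha in 15, Cox6b2 in 15, mt-Nd3 in 14, Cox5b in 12, Ndufs1 in 12 and Atp5c1 in 10. The value of mt-Nd3 was 0.05 when its counts were summed with those of its copy on chromosome 1, which held 90.5% to 97.8% of the pair. Ndufa3 and Ndufs1 overlap genes on the other strand, Tfpt and Eef1b2, and the part of such reads was not tested.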

How the results depend on the processing

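The directions of the LPS comparisons depended on the scaling. On log2(TPM + 1) and log2(TPM + 0.1) the nuclear genes had 0 and 0 higher and 45 and 45 lower in WTL against WT, and 10 and 10 higher and 39 and 39 lower in KOL against KO. Signs turned on these scales for Ndufa4 (-0.41 and -0.41 in WTL against WT, -0.38 and -0.38 in KOL against KO), Cox7c (-0.12 and -0.12), Ndufb4 (-0.054 and -0.056), Sdhc (-0.26 and -0.26) and Mrpl39 (-0.0056 and -0.00592), all in WTL against WT unless given. Centring TPM on the median of all genes gave 2 nuclear genes lower in WTL against WT, 3 lower in KOL against WTL and 2 with a lower response in KO, against 1 and 1 for the uncentred scales. It gave 1 mitochondrial gene higher in WTL against WT, 0 lower in KO against WT and 0 with a different response; the uncentred scales gave 0 and 0 for the first, 0 and 0 for the last and 1 and 1 higher in KOL against KO. They gave 10 and 10 nuclear genes lower in KO against WT.

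The shares of all genes called are given for the main fit, the summed copies and log2(TPM + 1), centred or not. They are not given for any other fit, among them the fits of the 6 libraries and those without 1 library. Fits of the 6 libraries alone gave 12 nuclear genes lower and 10 mitochondrial genes higher in KO against WT, 15 and 1 nuclear genes higher and lower in KOL against WTL, and 1 and 5 mitochondrial genes higher in WTL against WT and KOL against KO. Without a filter, mitochondrial genes higher numbered 9 in WTL against WT, 11 in KO against WT, 8 in KOL against WTL and 7 in KOL against KO, where 2 were lower, 2 and 3 had a higher and lower response in KO, and 4 nuclear genes were lower in KOL against WTL; at least 10 counts in every library gave 1 mitochondrial gene higher in WTL against WT. Summing the copies or all genes of shared sequence gave 6 and 6 mitochondrial genes higher in WTL against WT, 8 and 8 in KOL against WTL, 6 and 6 in KOL against KO, and 0 and 0 with a higher response in KO, and the second gave 2 nuclear genes lower in WTL against WT. With the study's fold cutoffs, nuclear genes higher and lower were 0 and 0 in WTL against WT, 19 and 2 in KO against WT, 4 and 1 in KOL against WTL and 2 and 0 in KOL against KO, and mitochondrial genes higher were 1 in WTL against WT and 1 in KOL against KO, with 0 lower in KO against WT. As a share of TPM without mt-Atp8, mitochondrial genes and copies took 8.09%, 6.95%, 10.3% and 9.18% in WT, WTL, KO and KOL.

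Leaving out 1 library at a time, nuclear genes higher and lower ranged over 16 to 48 and 1 to 4 in WTL against WT, 20 to 25 and 3 to 8 in KO against WT, 15 to 37 and 3 to 7 in KOL against WTL, 32 to 42 and 8 to 10 in KOL against KO, and 1 to 7 and 1 to 12 for the interaction. Mitochondrial genes higher ranged over 1 to 4, 4 to 6, 4 to 6, 2 to 3 and 0 to 1 in the same order, and those lower over 0 to 1 in KO against WT and 0 to 2 in KOL against KO. Same-numbered libraries gave no sign of deviating together (correlations of -0.286 to 0.112, against up to 0.326 between differently numbered ones). Deviations from means of 3 libraries cannot show whether libraries shared a mouse or culture. With the replicate number as a block, 4 nuclear genes had a lower response in KO in place of 7, and no other count moved by over 1.5 times. The causes of these shifts were not tested. Where a fit's share of all genes called is not given, a shift in OXPHOS calls cannot be told from one over all genes. Expected counts cannot separate the copies, and genes under 3 counts were below what this depth can measure.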
